A study of Homo sapiens with 6 samples.

Results

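The 10 genes described here are the immediate early and activator protein 1 (AP-1) genes FOS, FOSB, JUN, JUNB, JUND, EGR1, ATF3, IER2, DUSP1 and ZFP36. They were taken by symbol from an expression table of 32364 genes measured by messenger RNA (mRNA) sequencing, and all 10 were in that table. The cells were Kasumi-1, a human myeloblastic leukemia line with the t(8;21) translocation that makes the RUNX1-RUNX1T1 fusion. The comparison was between 3 control libraries, from cells that per the study's methods received the vehicle DMSO, and 3 libraries from cells given the histone deacetylase (HDAC) inhibitor I13 at 0.5 µM. Both groups were incubated for 48 h, and no earlier time was measured here. All libraries came from 1 cell line, and the labels do not say whether replicates were separate cultures. The study describes its sequencing figures as standing for independent experiments, without saying whether the libraries were those experiments. The p-values below measure the spread between these libraries, which may be technical. The comparison asks how the mRNA of these genes stood after 48 h with the inhibitor.

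Immediate early genes are switched on within minutes of a growth factor, cytokine or stress signal, without new protein synthesis, and their mRNAs usually decay fast. MAP kinases and the transcription factors SRF and CREB carry the signal to their promoters. AP-1 is a pair of leucine zipper proteins, either a FOS protein with a JUN protein or 2 JUN proteins, that binds short DNA elements near target genes. FOS proteins need a JUN partner, while JUN proteins can also pair with each other. The set also holds its own brakes, since DUSP1 removes the phosphates that activate MAP kinases and ZFP36 marks short-lived mRNAs for decay. In myeloid cells AP-1 and EGR1 are known for their place in monocytic maturation.

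The libraries held between 15281052 and 17221345 fragments, as recovered from the deposited FPKM values. FPKM counts fragments per kilobase of exon, scaled to the depth of the library. Control 3 and I13 2 stood apart from the other 4 libraries on the first principal component of the well expressed genes, which held 43.3% of the variance, so differences are also given within those 4 libraries and within that pair. The 7 markers chosen for Kasumi-1 cells were all present at 10.8 FPKM or more, among them MPO, KIT and CD34. The myeloid antigen CD33, also on that list, stood at 10.8 to 11.9 FPKM in control and 12.7 to 13.7 FPKM in I13. Its I13 libraries all lay above its controls, as in 4.88% of all genes tested. Its unadjusted limma p was 0.0166 and its adjusted p 0.89. By log2 fold change, 3 of the 7 markers were higher in I13 and 4 were lower, namely MPO, KIT, ELANE and PRTN3. The groups overlapped for every marker of that list but CD33. Of 10 markers of other cell types, 7 were in the table, with a summed level of 0.483 to 0.717 FPKM in control and 0.215 to 0.550 FPKM in I13, and the fibroblast genes COL1A1 and COL1A2 were at 0 throughout. Among these markers, the T cell gene CD3D lay at 0.313 to 0.376 FPKM in control and 0.129 to 0.141 FPKM in I13. Those values rest on 5, 6 and 5 fragments in control and 2, 2 and 2 fragments in I13. The other T cell gene, CD3E, had 1, 3 and 5 fragments in control and 2, 2 and 2 in I13, with overlapping groups. The part of these genes in the results below was not tested. In bulk libraries such as these, fewer cells of a type and less RNA per cell cannot be told apart.

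The promoters of 4 members are printed as examples chosen by hand. Their letters match elements known for CREB in all 4, as do those of some other members, and for SRF in EGR1. Each runs from 250 bases before to 50 bases after the RefSeq start (GRCh38.p14), 5′ to 3′ on the gene's own strand. Capitals mark the core of the cyclic AMP response element (CRE), TGACG on either strand, and CArG boxes, the element that SRF binds. They lie at chr14:75278578-75278877 (plus strand) for FOS, chr5:138465229-138465528 (plus strand) for EGR1, chr19:18281573-18281872 (minus strand) for JUND and chr5:172771146-172771445 (minus strand) for DUSP1.
FOS: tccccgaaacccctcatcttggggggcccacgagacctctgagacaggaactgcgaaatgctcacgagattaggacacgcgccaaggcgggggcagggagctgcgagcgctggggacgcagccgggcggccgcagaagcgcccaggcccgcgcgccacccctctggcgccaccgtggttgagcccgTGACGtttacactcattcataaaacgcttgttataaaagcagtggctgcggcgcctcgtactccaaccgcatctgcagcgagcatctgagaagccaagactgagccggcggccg
EGR1: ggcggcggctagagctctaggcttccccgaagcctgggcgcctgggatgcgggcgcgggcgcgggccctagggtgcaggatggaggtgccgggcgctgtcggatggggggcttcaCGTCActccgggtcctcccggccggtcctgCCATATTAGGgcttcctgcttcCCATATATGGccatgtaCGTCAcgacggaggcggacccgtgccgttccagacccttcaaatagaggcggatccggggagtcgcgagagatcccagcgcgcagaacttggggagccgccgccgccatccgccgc
JUND: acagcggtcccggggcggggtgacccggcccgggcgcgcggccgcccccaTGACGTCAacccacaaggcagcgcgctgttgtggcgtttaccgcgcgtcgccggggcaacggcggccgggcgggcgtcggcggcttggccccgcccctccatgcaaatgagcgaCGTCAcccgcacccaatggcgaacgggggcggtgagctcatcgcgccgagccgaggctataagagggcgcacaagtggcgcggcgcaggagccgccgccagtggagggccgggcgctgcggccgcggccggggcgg
DUSP1: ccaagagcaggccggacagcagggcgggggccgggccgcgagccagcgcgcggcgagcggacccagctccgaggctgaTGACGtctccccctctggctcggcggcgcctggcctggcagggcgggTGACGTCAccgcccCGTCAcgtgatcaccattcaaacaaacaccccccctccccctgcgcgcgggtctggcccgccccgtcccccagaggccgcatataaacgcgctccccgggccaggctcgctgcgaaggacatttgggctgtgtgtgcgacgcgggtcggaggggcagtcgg

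Counted from the start site, the FOS promoter held a CRE core at position -64. JUND and DUSP1 held the full CRE, TGACGTCA, which contains the core on both strands, at positions -200 and -125. EGR1 held 2 CArG boxes, at positions -105 and -83. In the windows searched no other member held a CArG box, FOS included. Sequence farther from the start was not searched. Among 35093 RefSeq promoters of this length, 1.85% held the full CRE, 24.5% a CRE core and 1.29% a CArG box, searched on both strands. In the windows searched, a CRE core was found in 8 of the 10 members, all but ATF3 and ZFP36. The ATF3 window with a motif match lay at chr1:212614768-212615067, inside the gene as annotated (chr1:212565334-212620777). The search may thus not cover every start of ATF3. The TATA box letters TATAAA were in FOS, FOSB, JUNB, ATF3 and DUSP1 and in 11.5% of all promoters. The AP-1 heptamer TGANTCA, held by 7.71% of promoters, and the EGR site GCGGGGGCG, held by 5.07%, were in none of the 10. A match of letters is a description and not evidence of binding.

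All 10 genes were detected in all 6 libraries, but at very unequal levels. FPKM allows genes to be compared per length. JUND was the highest with a mean of 56.6 FPKM over the 6 libraries, followed by JUNB at 35.8 FPKM. ZFP36 at 13.1 FPKM and JUN at 12.1 FPKM had overlapping ranges, and ZFP36 was the higher in 4 of 6 libraries. IER2 followed at 7.40 FPKM and DUSP1 at 3.27 FPKM. EGR1 at 1.27 FPKM and ATF3 at 0.749 FPKM overlapped, as did FOS at 0.387 FPKM and FOSB at 0.244 FPKM. The other neighbours in this order did not overlap in any library. Among the genes above 0, JUND stood at the 97.7th percentile of level, FOS at the 47.3rd and FOSB at the 42.2nd.

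**Figure D1:**
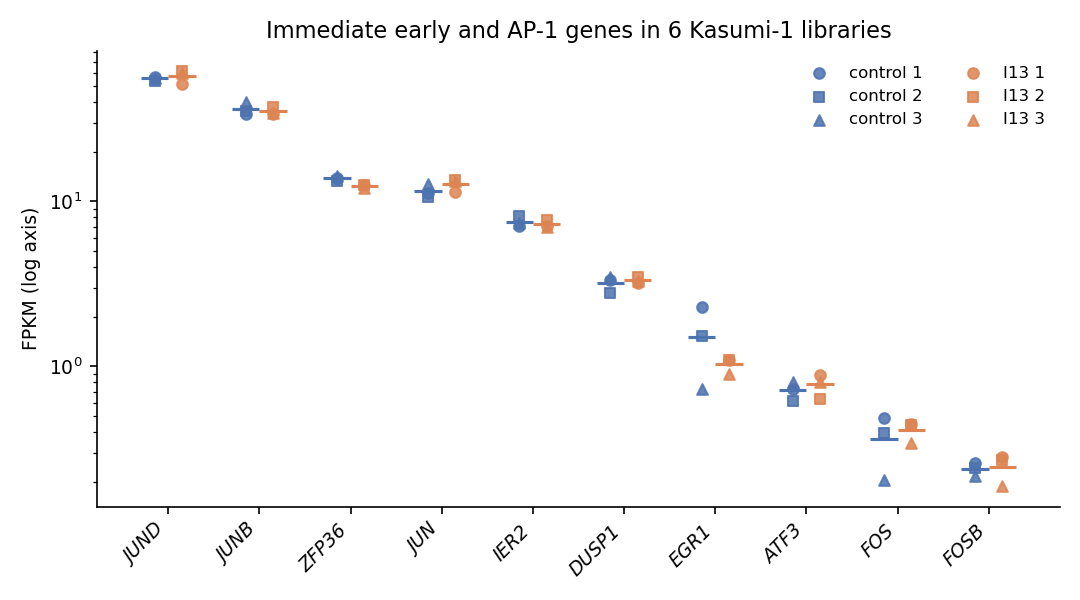
FPKM (log axis) of each gene in each library, with control in blue and I13 in orange, 1 marker shape per replicate number and short bars for the group means. The means over 6 libraries run from 56.6 FPKM for JUND to 0.244 FPKM for FOSB, and only for ZFP36 do the 2 groups not overlap.

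None of the 10 genes passed the test between I13 and control. The test was limma on log2(FPKM + 0.1), with calls at a Benjamini-Hochberg adjusted p under 0.05 and a log2 fold change of at least 0.58 either way. It called 0 of 18726 genes tested (0%), with a smallest adjusted p of 0.275, so no gene in the table could be called this way. At an unadjusted p under 0.05, limma listed 963 genes, or 5.14% (478 higher, 2.55%, and 485 lower, 2.59%). With the fold added it listed 445, or 2.38%. The voom test on recovered fragments called 6 of 12966 genes (0.0463%), none of them a member, and listed 691 (5.33%) at an unadjusted p under 0.05, again without a member. Among the 10, limma listed 1 at an unadjusted p under 0.05, ZFP36, on the lower side, and 0 with the fold added.

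The log2 fold changes of the 10 ran from -0.39 for EGR1 to 0.19 for FOS, with 6 above 0, 4 below and a median of 0.034, against a median of 0.006 over all genes tested. ZFP36 was the member whose I13 libraries all lay below its controls, where 4.64% of all genes tested showed that arrangement, and no member lay wholly above, where 4.88% did. For 7 members the 95% interval lay inside a log2 change of 0.58 either way: JUN, JUNB, JUND, ATF3, IER2, DUSP1 and ZFP36. For those, a change of that size falls outside the interval. For ATF3 this held only narrowly, with an upper limit of 0.570 at 43 to 57 fragments a library. The other 3 intervals reached past it: that of FOS on the higher side alone, that of EGR1 on the lower side alone and that of FOSB on both sides. A rise of that size in FOS, a fall of that size in EGR1 and either in FOSB lay inside the intervals, so these libraries could not tell them from no change.

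**Figure D2:**
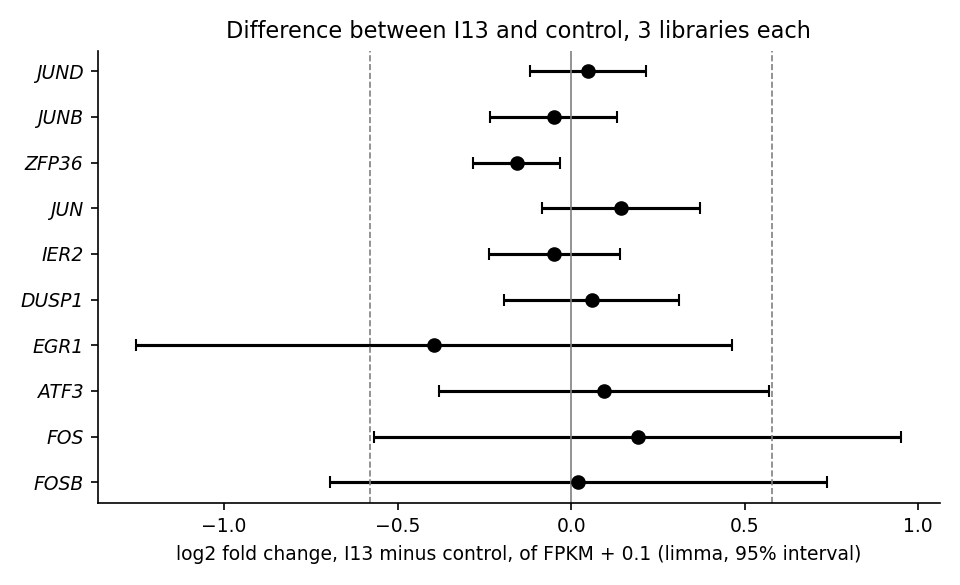
Log2 fold change of FPKM + 0.1, I13 minus control, for each gene ordered by level, with 95% intervals from limma, and dashed lines at 0.58 either way. The intervals of FOS, FOSB and EGR1 cross a dashed line, and that of ZFP36 alone leaves out 0.

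JUND (ENSG00000130522, chr19:18279760-18281622, minus strand) encodes the JUN protein that many cells keep at a steady level. It stood at 56.9, 53.9 and 56.0 FPKM in control and 51.7, 61.2 and 59.9 FPKM in I13. The I13 libraries spread on both sides of the controls, with I13 1 the lowest and I13 2 the highest of the 6. Its log2 fold change was 0.048 (95% interval -0.119 to 0.215), and limma's adjusted p was 1.0. Without I13 1 it was 0.124, with an unadjusted limma p of 0.0398, so the lowest library set that side of the threshold.

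JUNB (ENSG00000171223, chr19:12791496-12793315, plus strand) encodes a JUN protein that often holds back growth in myeloid cells. It stood at 33.7, 35.4 and 40.2 FPKM in control and 33.8, 37.5 and 34.2 FPKM in I13. The groups overlapped, and control 3 was the highest library. I13 minus control gave a log2 fold change of -0.050 (95% interval -0.233 to 0.133). JUNB shares exon positions with HOOK2, a gene of the opposite strand at a mean of 3.24 FPKM, and the sources do not say whether counting used strand.

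JUN (ENSG00000177606, chr1:58780788-58784327, minus strand), the founding member of the family, stood at 11.2, 10.6 and 12.8 FPKM in control. In I13 it stood at 11.4, 13.6 and 13.3 FPKM. The groups overlapped, with control 2 the lowest library and I13 2 the highest. On the log2 scale the difference was 0.14 (95% interval -0.084 to 0.372), with an unadjusted limma p of 0.18 and an adjusted p of 0.983.

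The summed level of the 3 JUN genes was 104 ± 4.80 FPKM in control and 106 ± 7.83 FPKM in I13 (mean ± SD, n = 3), a difference inside the spread of either group. JUND gave 51.4 to 55.9% of that sum over the 6 libraries, and JUNB 31.8 to 36.9%, with overlapping groups for both. JUN gave 11.0, 10.6 and 11.7% of it in control and 11.7, 12.1 and 12.4% in I13. Those shares did not overlap, with control 3 just under I13 1, and they are a description with no test.

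FOS (ENSG00000170345, chr14:75278774-75282230, plus strand) encodes the classical JUN partner and is induced by serum and many cytokines. It stood at 0.484, 0.396 and 0.205 FPKM in control and 0.446, 0.444 and 0.344 FPKM in I13, which were 27, 22 and 11 fragments and 23, 24 and 17 fragments. Control 3 was the lowest library and control 1 the highest, so the controls spanned the I13 range. The 95% Poisson intervals of these 2 controls, 17.8 to 39.3 and 5.49 to 19.7 fragments, overlapped, which is counting error only. A log2 fold change of 0.19 (95% interval -0.57 to 0.95) was found, and without control 3 it was -0.081.

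FOSB (ENSG00000125740, chr19:45467995-45475179, plus strand), a close relative of FOS, was the lowest of the 10. It stood at 0.261, 0.241 and 0.217 FPKM in control and 0.283, 0.270 and 0.189 FPKM in I13, from 16 to 25 fragments a library. The groups overlapped, and I13 1 and I13 3 were the highest and lowest libraries. FOSB overlaps the gene ERCC1, which lies on the opposite strand and had a mean of 8.21 FPKM. Their exons do not overlap, and the sources do not say whether counting used strand. The fold change of FOSB on the log2 scale was 0.020 (95% interval -0.70 to 0.74).

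FOSL2 and FOSL1, the FOS family genes outside the 10, held most of the FOS family's transcripts. This breakdown was chosen after their values were seen. FOSL2 gave 75.3 ± 1.09% of the summed FPKM of the 4 FOS family genes in control and 72.8 ± 4.64% in I13 (n = 3). FOSL1 gave 22.4% and 24.2%. FOS gave 0.728 to 2.18% over the 6 libraries. The summed FPKM was 24.6, 25.1 and 28.2 in control and 20.5, 21.7 and 23.6 in I13. The groups did not overlap, and neither did those of FOSL2, the largest part of the sum. The sum of JUN family FPKM was 4.14, 3.97 and 3.87 times that of the FOS family in control and 4.73, 5.18 and 4.55 times in I13. Both are descriptions with no test.

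**Figure D3:**
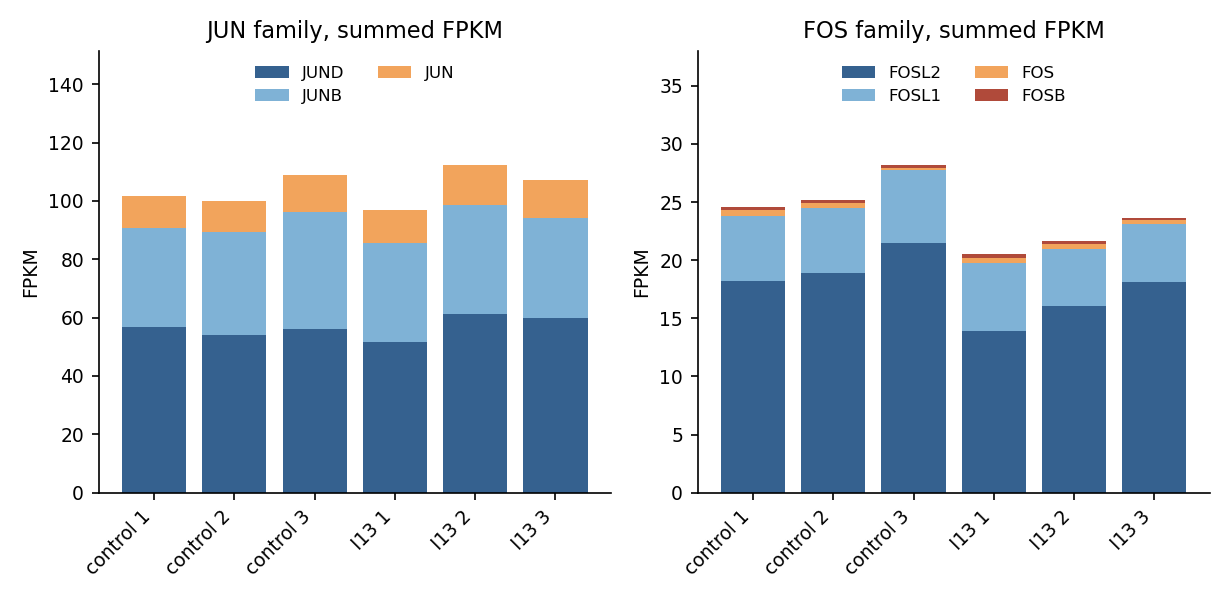
Stacked bars of the summed FPKM of the JUN family and of the FOS family in each library. JUND is the largest block of the JUN family and FOSL2 of the FOS family, and the FOS family sum runs from 24.6 to 28.2 FPKM in control and from 20.5 to 23.6 FPKM in I13.

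FOSL2 itself was 18.2, 18.9 and 21.5 FPKM in control and 13.9, 16.0 and 18.1 FPKM in I13. All 3 I13 values lay below all 3 controls, with I13 3 and control 1 close together. The difference was -0.29 on the log2 scale (SE 0.11), with an unadjusted limma p of 0.0303 and an adjusted p of 0.947. The unadjusted p reached 0.121 when single libraries were left out, and it was past 0.05 without control 2, control 3, I13 1 or I13 2. Without limma's variance trend it was 0.0715. By voom the unadjusted p was 0.00212 and the adjusted p 0.421.

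EGR1 (ENSG00000120738, chr5:138465490-138469315, plus strand), a zinc finger factor induced through SRF, varied the most among members above 1 FPKM. It stood at 2.30, 1.52 and 0.731 FPKM in control and 1.10, 1.09 and 0.897 FPKM in I13, or 124, 82 and 38 fragments and 55, 57 and 43 fragments. The controls spanned more than the whole I13 range, with control 1 the highest and control 3 the lowest of the 6 libraries. Their coefficient of variation was 51.6%, against 11.1% in I13. The 95% Poisson intervals of control 1 (103 to 148 fragments) and control 3 (26.9 to 52.2 fragments) did not overlap. These controls, picked as the highest and lowest libraries, thus differed beyond Poisson counting error.

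The log2 fold change of EGR1 was -0.39 (95% interval -1.25 to 0.47), with an unadjusted limma p of 0.315. Without control 3 it was -0.81, with an unadjusted limma p of 0.0157, and without control 1 it was -0.046, with a p of 0.894. The log2 difference was -0.85 when control 3 and I13 2 were set aside and 0.52 between I13 2 and control 3, the opposite sign. The value thus rested on which control libraries were used.

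Over the 6 libraries, the genes whose pattern was most like that of EGR1 were MID1IP1-AS1, UBE2D3P1, LINC01088, SMIM24 and AC024580.1. Likeness was the root mean square difference of log2(FPKM + 0.1) around each gene's mean, taken over 11517 genes at 1 FPKM or more. It was 0.138 for MID1IP1-AS1 and 0.236 for AC024580.1, against 0.495 for a gene with the same value in every library. These were the closest of all genes compared, over only 6 values, so closeness follows in part from the selection. Whether it went beyond chance was not tested. No other member was among these 5.

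**Figure D4:**
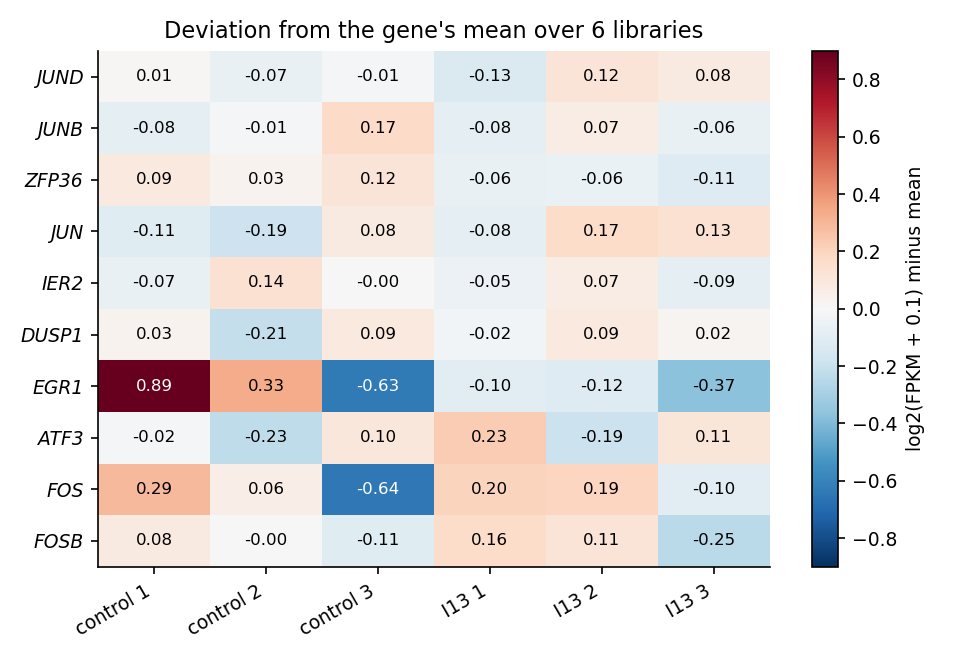
Deviation of each gene in each library from its own mean over the 6 libraries, on the log2(FPKM + 0.1) scale, in numbers and colour. EGR1 runs from 0.89 in control 1 to -0.63 in control 3 and FOS reaches -0.64 in control 3, while JUND stays between -0.13 and 0.12.

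ATF3 (ENSG00000162772, chr1:212565334-212620777, plus strand), a stress-induced factor of the ATF/CREB family, stood at 0.733, 0.620 and 0.807 FPKM in control. In I13 it stood at 0.886, 0.638 and 0.810 FPKM. The groups overlapped, with control 2 the lowest library and I13 1 the highest. I13 minus control was 0.094 on the log2 scale (95% interval -0.38 to 0.57), and its sign differed between the 4 libraries (0.29) and the pair (-0.30).

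IER2 (ENSG00000160888, chr19:13150415-13154908, plus strand), a small nuclear protein induced with FOS, stood at 7.05, 8.16 and 7.39 FPKM in control. In I13 it stood at 7.14, 7.75 and 6.95 FPKM. The groups overlapped, and the log2 fold change was -0.048 (95% interval -0.238 to 0.142). Its exons overlap those of AC011446.2 on the opposite strand, which was not in the table, and the reads of such a pair cannot be told apart unless counting used strand.

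DUSP1 (ENSG00000120129, chr5:172768090-172771195, minus strand), the MAP kinase phosphatase, stood at 3.34, 2.80 and 3.47 FPKM in control. In I13 it stood at 3.20, 3.47 and 3.31 FPKM. The I13 libraries lay within the control range but for I13 2, which was level with control 3. Its log2 fold change was 0.059 (95% interval -0.193 to 0.311), with a limma p of 0.596.

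ZFP36 (ENSG00000128016, chr19:39406813-39409412, plus strand), which encodes tristetraprolin, stood at 13.9, 13.3 and 14.2 FPKM in control and 12.5, 12.6 and 12.1 FPKM in I13. The groups did not overlap, and I13 3 was the lowest. The means were 13.8 ± 0.430 and 12.4 ± 0.260 FPKM (SD, n = 3), a ratio of 0.897 on the FPKM + 0.1 scale (95% interval 0.823 to 0.978). This gave a log2 fold change of -0.16 (SE 0.053), with an unadjusted limma p of 0.0207 and an adjusted p of 0.89. Without control 3 and I13 2 the log2 difference was -0.15, and between those 2 libraries it was -0.17. An exact two-sided permutation test of 3 against 3 libraries cannot give a p below 0.1. Groups that do not overlap reach that value by their order alone, so it adds nothing to the lack of overlap. The unadjusted p was past 0.05 by voom (0.106), without limma's variance trend (0.0594) and with the replicate number as a block (0.0654). With single libraries left out, the unadjusted limma p was at most 0.041. With a term for control 3 and I13 2 it was 0.00848 by limma and 0.053 by voom.

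The genes around AP-1 were taken from 4 lists: other immediate early genes, other leucine zipper factors that pair with or resemble AP-1, upstream regulators, and known AP-1 targets. Of 33 other immediate early genes 24 were tested, of 22 zipper factors 19, of 24 upstream regulators all 24, and of 16 targets 10. No gene of the 4 lists passed the adjusted p by limma. At an unadjusted p under 0.05, limma listed 3 lower and 0 higher among the immediate early genes, 0 lower and 1 higher among the zipper factors, 1 lower and 0 higher among the regulators, and 0 lower and 2 higher among the targets. Over all genes tested, 2.59% were listed lower and 2.55% higher, against which these counts, of 10 to 24 genes a list, are to be read. The medians of the log2 fold changes were -0.052, -0.014, -0.015 and -0.060, against 0.006 over all genes tested.

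Among the other immediate early genes, SOCS3, an inhibitor of cytokine receptor signaling, stood at 1.61, 1.77 and 2.05 FPKM in control and 1.20, 1.36 and 1.29 FPKM in I13. The groups did not overlap. The log2 fold change was -0.46, with an unadjusted limma p of 0.0121 and an adjusted p of 0.875. In all 18 alternative fits its unadjusted p stayed under 0.05. PPP1R15A, which restores translation after stress, stood at 5.82 ± 0.115 FPKM in control and 5.01 ± 0.405 FPKM in I13 (SD, n = 3), with an unadjusted limma p of 0.0327 and an adjusted p of 0.947. That unadjusted p reached 0.0827 when single libraries were left out, being past 0.05 without any 1 of them but I13 1. It was also past 0.05 by voom (0.0604) and with the replicate number as a block (0.0547). The highest genes of this list were close between groups: ZFP36L2 at 79.1 and 74.1 FPKM, MCL1 at 47.6 and 47.6 FPKM, and DUSP6 at 18.9 and 19.7 FPKM.

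Among the zipper factors, BATF3 was listed on the higher side, at 0.171, 0.236 and 0.490 FPKM in control and 0.695, 0.530 and 0.603 FPKM in I13. Those were 8, 11 and 22 fragments and 30, 24 and 25 fragments, and the groups did not overlap. The difference was 0.90 on the log2 scale, with an unadjusted limma p of 0.0327 and an adjusted p of 0.947. It was 1.31 without control 3 and I13 2 and 0.097 between them. With any library but control 3 left out the unadjusted p passed 0.05, reaching 0.0986. By voom the unadjusted p was 0.00477 and the adjusted p 0.522. ATF4, the highest of this list and a mediator of the stress response, stood at 208 FPKM in control and 205 FPKM in I13. NFE2L1 and MAFG stood at 39.6 and 14.2 FPKM in control and 39.9 and 14.6 FPKM in I13.

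Among the regulators, MAPK3, the kinase ERK1, stood at 7.22, 7.75 and 7.91 FPKM in control and 6.52, 6.19 and 6.31 FPKM in I13. The groups did not overlap. The log2 fold change was -0.26 (SE 0.067), with an unadjusted limma p of 0.00555 and an adjusted p of 0.787. In all 18 alternative fits its unadjusted p stayed under 0.05. SRF, which drives EGR1 and FOS through the CArG box, stood at 28.5 FPKM in both groups, with a log2 fold change of 0.001 and a limma p of 0.984. RPS6KA4 and MAP2K2 stood at 49.8 and 27.3 FPKM in control and 48.5 and 26.2 FPKM in I13.

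Among the AP-1 targets, CCND1, which drives entry into the cell cycle, stood at 0.962, 1.30 and 0.887 FPKM in control and 1.72, 1.56 and 1.55 FPKM in I13. The groups did not overlap. The log2 fold change was 0.59, with an unadjusted limma p of 0.0111 and an adjusted p of 0.875. By voom the unadjusted p was 0.00113 and the adjusted p 0.316. In all 18 alternative fits the unadjusted p stayed under 0.05. TIMP1, an inhibitor of matrix proteases, stood at 20.9 ± 0.900 FPKM in control and 23.0 ± 0.033 FPKM in I13 (SD, n = 3), with an unadjusted limma p of 0.0289 and an adjusted p of 0.947. Without control 2 or without I13 1 the unadjusted p passed 0.05, reaching 0.0686. It was also past 0.05 by voom (0.13), without limma's variance trend (0.0938) and with the replicate number as a block (0.0702). TGFB1 stood at 101 and 97.9 FPKM and CD44 at 28.5 and 29.1 FPKM.

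**Figure D5:**
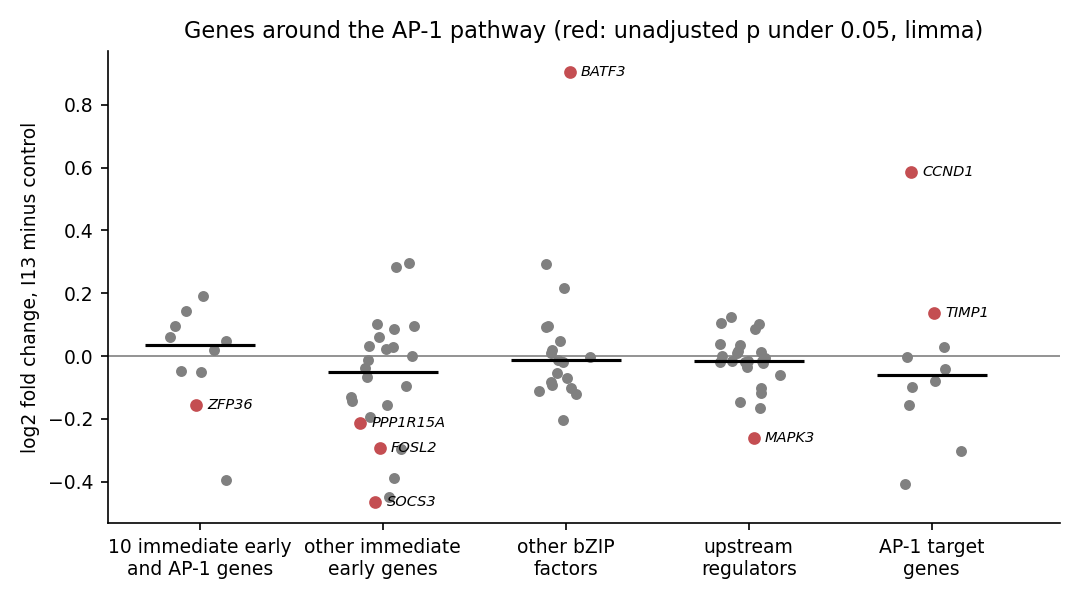
Log2 fold change, I13 minus control, of each tested gene in the 10 members and the 4 lists, 1 point per gene, with red and a name for an unadjusted limma p under 0.05 and a bar for the median. The red points are ZFP36, SOCS3, FOSL2, PPP1R15A, BATF3, MAPK3, CCND1 and TIMP1, and none of them passed the adjusted p.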

How the data were processed

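The authors deposited FPKM values for 32364 Ensembl genes in 6 Kasumi-1 libraries, made from Trizol-extracted RNA with a stranded mRNA kit. The submitters' processing notes name hg38, Trimmomatic, HISAT2, Cufflinks and HTSeq, without versions. The annotation is not given in the sources used here, nor is the strand setting. Symbols and positions came from GENCODE 29, and promoters from RefSeq GRCh38.p14. The members and the gene lists were chosen with earlier results of these data known.

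FPKM multiplied by the GENCODE 29 exon length and by the depth gave whole fragments in all 6 libraries for 25773 of 27002 genes (95.4%, tolerance 0.01), all 10 members among them. Genes with a mean of at least 0.1 FPKM (18726) were tested on log2(FPKM + 0.1) with limma 3.58.1 (trend) in R 4.3.3, and calls needed a Benjamini-Hochberg adjusted p under 0.05 and a log2 fold change of at least 0.58, the study's fold and p thresholds. Fold changes on that scale understate those of low genes. Alternatives were voom on fragments (a mean of at least 10), no variance trend, other pseudocounts and filters, the replicate block and leaving out each library. Tested on simulated data with 200 genes changed 2-fold, limma called 190 of them, with 30 unchanged genes called, and voom called 200, with 4. The 200 changed genes were drawn only from well covered genes, with more fragments on average than FOS, FOSB, ATF3 or EGR1 had. The counts were not split further by level and describe the simulated libraries only. The chance of calling such a change in the members, several of them at few fragments, was not tested.

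Besides every member, the text names the list genes at an unadjusted limma p under 0.05, the 3 with the highest mean FPKM of each list, and the 5 genes most like EGR1. FOSL1 and FOSL2 were singled out as family members after their values were seen, although FOSL2 also meets the p rule. FOSL2 is on the list of other immediate early genes. Poisson intervals cover counting error only, and they take every fragment as an independent count. The reads carry no molecular identifiers, so that could not be checked.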

Additional observations from a re-analysis of the deposited data

How the results depend on the processing

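No gene was called by limma at the adjusted p, while 9 were without the variance trend, 6 by voom, 14 by voom when control 3 and I13 2 had their own term (chosen after seeing the data) and 445 when the unadjusted p was used with the fold. None of the 10 members was among the adjusted calls of limma or voom. The 1 member at an unadjusted p under 0.05, ZFP36, became 0 without the variance trend, with the replicate block and by voom. With single libraries left out the count was 1 to 2, the additions being EGR1 without control 3 and JUND without I13 1. In the voom fit with that term the 1 member was EGR1, not ZFP36. Same-numbered libraries did not all deviate together (correlations of 0.32, -0.38 and -0.30), while control 3 and I13 2 did (0.51). With 3 libraries a group, these values cannot settle whether the numbers pair the samples. The sign of the log2 fold change turned for FOS (-0.129 in the 4 libraries other than control 3 and I13 2, leave-one-out -0.081 to 0.388), FOSB (-0.080, leave-one-out -0.056 to 0.148), EGR1 (0.517 between control 3 and I13 2), ATF3 (-0.297 likewise) and IER2 (0.067 likewise, leave-one-out -0.094 to 0.010). It also turned with single libraries left out for JUNB (-0.104 to 0.023) and DUSP1 (-0.031 to 0.118). The cause was not tested. JUN, JUND and ZFP36 kept their sign throughout. FOS, FOSB and ATF3 gave no value at a minimum mean of 1 FPKM. At 11 to 57 fragments a library, FOS, FOSB and ATF3 could not show small changes.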
